A study of Mus musculus with 2 samples.

Results

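The collagen chain genes of the mouse were followed in eGFP-positive aortic cells of 2 genotypes. They were taken as every gene whose symbol is Col, a number, a and a number, which gave 44 of the 28000 features in the count matrices. Cells were used when they held at least 5 eGFP UMIs (unique molecular identifiers, which count each captured transcript molecule once), at least 500 genes and no more than 10% mitochondrial UMIs. This kept 1692 of 2095 cells in the control library and 1919 of 2097 in the knockout (KO) library. Each genotype gave 1 library, from thoracic aorta of C57BL/6 males at 24 weeks of age. Every mouse had Myh11-CreERT2, a recombinase that tamoxifen switches on and a smooth muscle myosin promoter drives, and the mT/mG reporter, which turns from tdTomato to eGFP where the recombinase has acted. All were given tamoxifen at 1.5 weeks. The control mice were Tsc1+/+, and the KO mice carried Tsc1fl/fl, so that the recombinase was meant to remove Tsc1, a brake on the growth kinase complex mTORC1, in the cells where that promoter is active, chiefly smooth muscle cells (SMCs). The tissue was digested with collagenase and elastase and viable GFP-positive cells were sorted. How many animals were pooled per library is not stated in the sources used here.

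Collagens are secreted proteins built from triple helices of alpha chains, each chain being the product of its own gene. Fibrillar collagens I, III and V form the load-bearing cables of the arterial media and adventitia. Collagen IV forms the sheet of the basement membrane around each SMC, collagen VI forms beaded microfibrils that link cells to the matrix, and the multiplexins XV and XVIII sit at the border of the basement membrane. The short-chain collagen VIII is known from endothelial cells and from SMCs of injured or atherosclerotic arteries. Collagen XIV binds to the surface of fibrils. Chains of 1 collagen are often encoded side by side, and the collagen IV genes lie in head-to-head pairs.

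The 3 stretches of DNA below lie beside the genes with the 2 highest ratios and the lowest ratio between the libraries, among collagen genes at 10 CPM (UMIs per 1000000 UMIs) or more. They are the sequence upstream of Col8a1, the whole gap between the starts of Col4a4 and Col4a3, and the sequence upstream of Col6a2. Each is read 5′ to 3′ on the strand of the named gene and ends at the base before the annotated start. The letters come from RefSeq's table of build GRCm38.p6, and bases inside annotated exons were left out. Capitals mark GGGCGG on either strand, the GC box bound by Sp1-type factors.
Col8a1, chr16:57754738-57754987, minus strand: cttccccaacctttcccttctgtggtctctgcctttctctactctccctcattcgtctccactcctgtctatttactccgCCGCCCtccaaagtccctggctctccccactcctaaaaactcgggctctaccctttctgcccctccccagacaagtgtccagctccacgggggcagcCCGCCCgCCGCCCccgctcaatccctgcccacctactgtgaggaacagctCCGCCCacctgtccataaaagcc
Col4a4 to Col4a3 gap, chr1:82586850-82586920, minus strand: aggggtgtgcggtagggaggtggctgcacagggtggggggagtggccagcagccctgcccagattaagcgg
Col6a2, chr10:76623631-76623880, minus strand: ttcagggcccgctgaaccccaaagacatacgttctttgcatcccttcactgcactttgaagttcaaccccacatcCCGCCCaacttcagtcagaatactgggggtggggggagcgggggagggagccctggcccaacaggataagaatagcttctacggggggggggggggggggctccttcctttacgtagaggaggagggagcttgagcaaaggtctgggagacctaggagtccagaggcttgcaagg
The Col8a1 stretch held GGGCGG at 4 places and the Col6a2 stretch at 1. The Col4a4 to Col4a3 gap held none of the motifs searched. Promoter windows of 300 bases, from 250 before to 50 after a start, were found for 35 of the 44 genes, and 22 of these 35 held GGGCGG, against 35.7% of 32851 windows genome-wide. CCAAT stood in 13 of 35 (37.4% of all windows), TATAAA in 5 (13.6%), TGANTCA in 1 (7.81%), the CArG box of serum response factor in 1 (1.63%) and CACGTG in 0 (7.15%). A gene was counted when any of its windows held the motif, and Col9a1, Col6a2 and Col18a1 had more than 1 window. The genome-wide shares are per window, so the units differ. Both strands were searched, and a match is only a match of letters.

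The used cells held 20011501 UMIs in control and 30778165 in KO cells. Their median depth was 11665 UMIs in control and 15012 in KO cells, 1.29 times deeper. The libraries shared 16 cell barcodes, of which 4 were in used cells of both. All 7 SMC markers were above 39 CPM in both libraries, but together they summed to 37476 CPM (control) and 18310 CPM (KO). Tsc1 stood at 9.54 CPM in control and 8.55 CPM in KO cells, a ratio of 0.895 (0.740 to 1.08). A droplet library counts a tag from a transcript's end, which can lie outside the removed part, so this does not check the genotype. Of 7 fibroblast markers, Pdgfra, Dpt, Lum, Dcn and Clec3b were higher and Pi16 and Scara5 lower in the KO library, with sums of 43.4 and 639 CPM. Dcn and Lum made most of this, with 22.9 and 6.10 CPM in control and 352 and 254 CPM in KO cells, while Pdgfra had 7.05 and 25.2 CPM. Of the endothelial markers Cdh5 and Tek were at 0 in both libraries, and the sum was 19.8 and 12.4 CPM. Pecam1 made most of it, with 18.4 and 11.2 CPM. The pericyte list summed to 1005 and 479 CPM, of which Rgs5 made 677 and 48.0 CPM. Its members did not share a direction. Abcc9 had 102 and 261 CPM, Kcnj8 57.0 and 55.6 CPM and Cspg4 169 and 115 CPM, and Higd1b had 0 and 2 UMIs. Of the immune markers Adgre1 and Cd3e were at 0, and the macrophage list summed to 14.6 and 13.8 CPM. Most of that sum was Cd68 (6.30 and 6.14 CPM), Lyz2 (4.60 and 3.35 CPM) and Tyrobp (3.35 and 2.40 CPM). The 339 eGFP-low control cells (0 or 1 eGFP UMI) had 1448 Xist UMIs and 0 Y-linked UMIs although the label is male. The used cells had 3276 Y-linked and 5 Xist UMIs in control, and 4491 and 6 in the KO library. In these sex-linked transcripts the eGFP-low cells were unlike the used cells of the same library, so the eGFP-low cells are no matched baseline. They are used below only for comparison, and which animals they came from was not tested.

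With 1 library per genotype there was no test and no replicate check. Ranges in brackets are exact 95% intervals of counting error. Values given as 1 level against another are control first and KO second.

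Collagen transcripts made up 0.447% of all UMIs in control and 0.292% in KO cells. In sum they stood at 4468 against 2917 CPM, a ratio of 0.653 (0.647 to 0.659). A control cell held a median of 48 collagen UMIs and a KO cell 38, and no used cell lacked them. The difference was uneven by class, so the composition of the collagen pool differed. Microfibrillar collagens were 2.97 times lower (2.87 to 3.07) and multiplexins 2.37 times lower (2.31 to 2.42). Short-chain collagens were 29.2 times higher (22.2 to 39.2), from 2.60 to 75.8 CPM, and fibril-associated collagens were 1.79 times higher (1.69 to 1.89). Of the fibril-associated UMIs, Col14a1 had 1393 of 1658 in control and 4173 of 4554 in KO cells. The other 8 fibril-associated genes were under 10 CPM in both libraries and did not share a direction. Of the short-chain UMIs, Col8a1 had 45 of 52 in control and 2316 of 2334 in KO cells. That class reached 10 CPM in the KO library only and so had to differ, and nothing is drawn from its call. Fibrillar collagens had a ratio of 0.683 and basement membrane collagens one of 0.849, both within 1.5-fold. The fibrillar class passed 1.5-fold as lower at an eGFP minimum of 20 UMIs (0.659), without the clusters that Dcn and Lum lead (0.603) and in cells with 2 to 5% of UMIs from SMC markers (0.476). As a share of collagen UMIs, fibrillar chains were 49.6% and 51.9%, and basement membrane chains 16.0% and 20.9%. Multiplexins were 21.1% and 13.7%, microfibrillar chains 11.2% and 5.81%, fibril-associated chains 1.85% and 5.07%, and short-chain collagens 0.0582% and 2.60%.

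**Figure D1:**
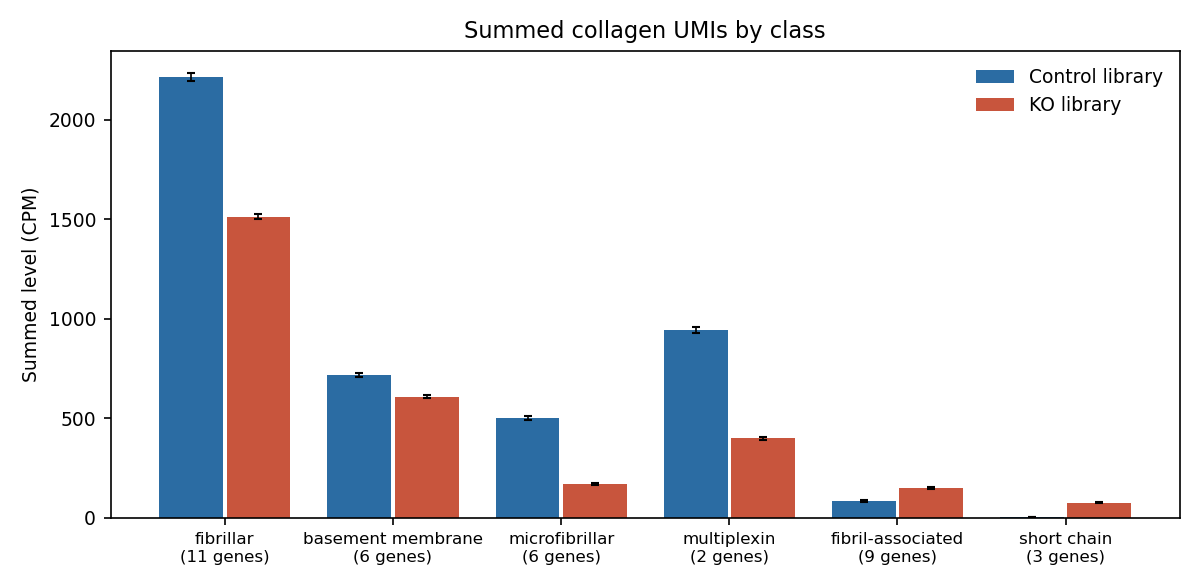
Summed level in CPM of 6 collagen classes in the control library (blue) and the KO library (red), with the number of genes in each class under its name. Error bars are exact 95% Poisson intervals of the summed counts, and the 7 genes of the other 2 classes are not shown. The control bar is higher for fibrillar, basement membrane, microfibrillar and multiplexin collagens, and the KO bar for fibril-associated (148 against 82.9 CPM) and short-chain collagens. Most UMIs of the fibril-associated class are of Col14a1, and most of the short-chain class are of Col8a1.

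Of the 44 genes, 39 had a UMI in a used cell and 19 reached 10 CPM in at least 1 library. Of these 19, 5 were at least 1.5 times higher in the KO library (Col8a1, Col4a4, Col4a3, Col14a1 and Col4a6) and 10 at least 1.5 times lower. Among all 8113 genes at 10 CPM, 13.2% were higher and 11.4% lower by the same rule (16.4% and 9.31% without the 20 most abundant genes in the totals). With a minimum of 50 CPM, 3 collagen genes were higher and 9 lower, beside 12.1% and 14.2% of all genes, and at 2-fold 3 were higher and 6 lower, beside 6.3% and 4.73%. The median log2 ratio of the 19 was -0.61, beside 0.00 over all 8113 genes. Col8a1, Col4a3, Col4a4 and Col27a1 reached 10 CPM in 1 library only, and such genes had to differ, so nothing is drawn from their calls. The 10 lower genes were Col6a2, Col27a1, Col6a1, Col18a1, Col15a1, Col3a1, Col6a3, Col4a1, Col4a2 and Col1a2. Calls close to the threshold were those of Col1a2 (0.653), Col4a1 (0.630), Col4a2 (0.631), Col6a3 (0.624) and Col4a6 (1.51). The 1.5-fold call of Col1a2, Col4a1 and Col4a2 was lost when the 20 most abundant genes of either library were left out of the totals.

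**Figure D2:**
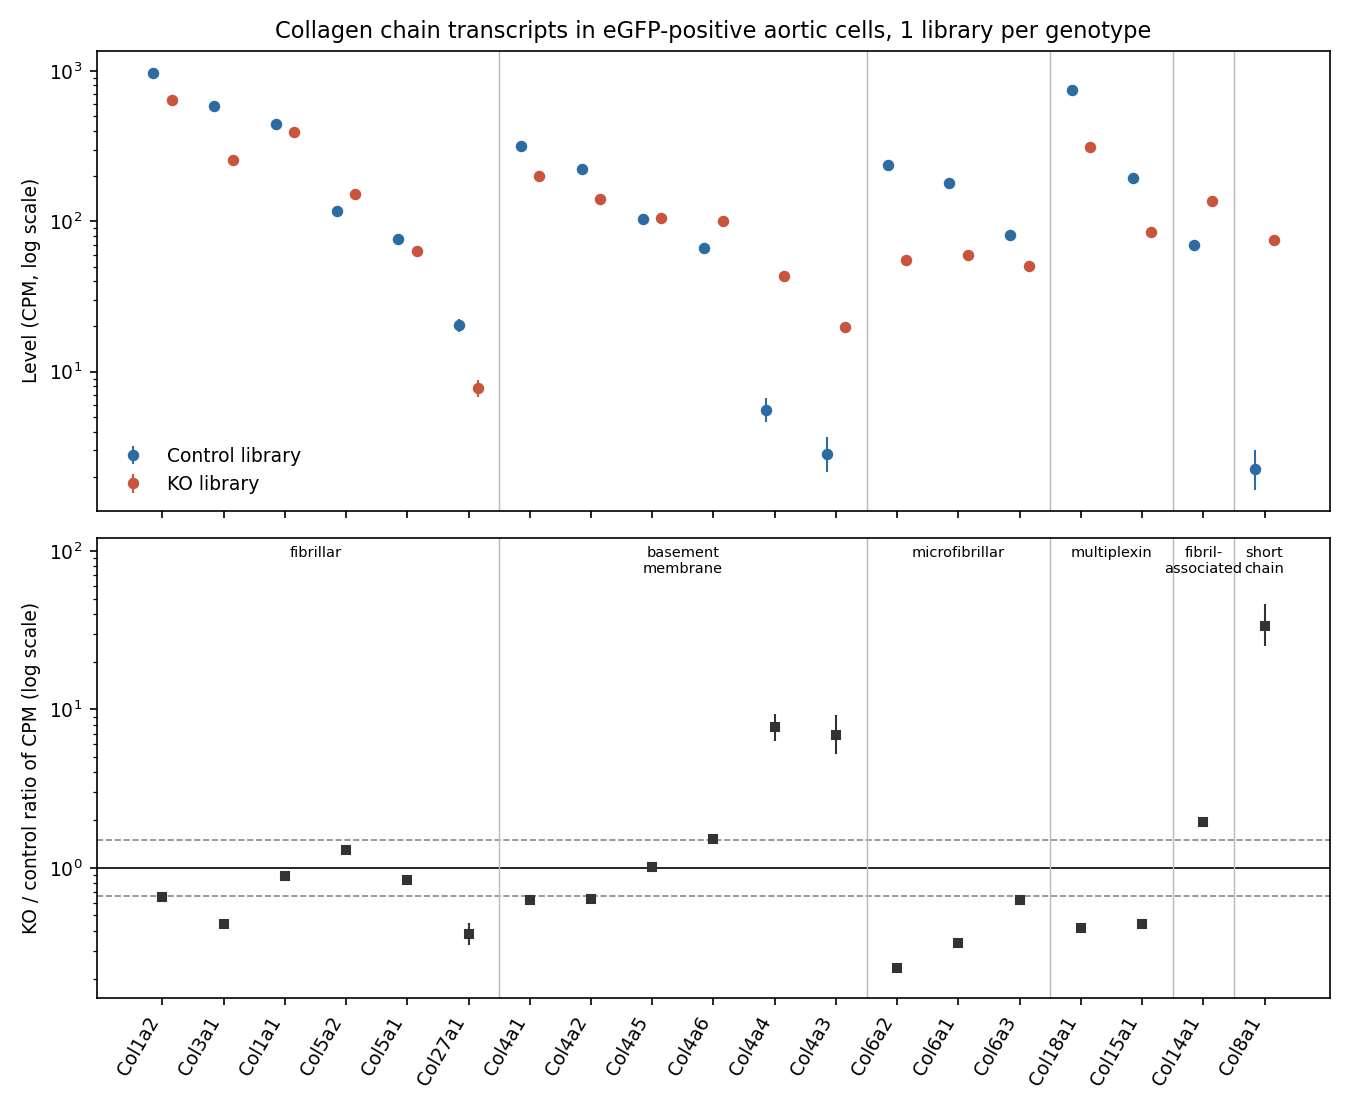
Upper panel, level in CPM on a log axis of the 19 collagen genes at 10 CPM or more in the control (blue) and KO (red) library, by class. Lower panel, the KO to control ratio on a log axis, with lines at 1 and at 1.5-fold in either direction (dashed). Bars are exact 95% intervals of counting error, often smaller than the points. Col8a1 stands highest at 33.5 and Col6a2 lowest at 0.234.

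Of the 3 fibrillar genes that build collagens I and III, Col3a1 and Col1a2 were lower past 1.5-fold and Col1a1 was not. Col1a2, the alpha-2 chain of collagen I and found on chromosome 6 (4504814 to 4541544, mm10), was the most abundant collagen transcript in both libraries, at 974 CPM (960 to 988) against 636 CPM (627 to 645). Col3a1, the single chain of collagen III (chromosome 1, 45311538 to 45349706), had 584 against 257 CPM and was 2.27 times lower (2.21 to 2.34). Col1a1, which encodes the alpha-1 chain of collagen I (chromosome 11, 94936224 to 94953042), stood at 442 against 395 CPM, with a ratio of 0.894 (0.870 to 0.919), which was 1.03 at a mitochondrial limit of 5%. The balance of the chains therefore differed. Col1a1 had 0.454 UMIs for each Col1a2 UMI in control (0.442 to 0.465) and 0.620 in KO cells (0.606 to 0.635). Per Col3a1 UMI there were 0.757 Col1a1 UMIs in control and 1.54 in KO cells. These are ratios of captured molecules, which a UMI counts once whatever the transcript's length, so no length correction was made.

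The collagen V chains, which regulate the width of collagen I fibrils, were within 1.5-fold. Col5a2 had 118 against 151 CPM, a ratio of 1.29 (1.22 to 1.35), and Col5a1 had 75.9 against 63.6 CPM, a ratio of 0.838 (0.783 to 0.897). Col5a2 lies tail to tail with Col3a1 on chromosome 1, with 24615 bases between the annotated ends. In cells with 2 to 5% of UMIs from SMC markers the Col5a2 ratio was 0.967, on the other side of 1. Over all used cells the Col5a2 to Col3a1 UMI ratio was 0.202 in control and 0.590 in KO cells. Col27a1, a minor fibrillar chain best known from cartilage, had 20.4 against 7.80 CPM and was 2.61 times lower (2.22 to 3.08).

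Some of the fibrillar difference depended on which cells were compared. When only cells with 2 to 5% of their UMIs from SMC markers were used (1292 control and 699 KO cells), the ratio was 0.389 for Col1a2 and 0.526 for Col1a1, each more than 1.5 times below its value over all used cells. That of Col27a1 was 0.225.

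Among fibril-associated collagens, Col14a1, which encodes the undulin chain on the surface of collagen I fibrils (chromosome 15, 55307750 to 55520803), was 1.95 times higher (1.83 to 2.07). Its level was 69.6 against 136 CPM, and 25.0% of control and 41.0% of KO cells held a UMI after thinning. For these shares each cell was reduced to 5000 UMIs, which left 1602 control and 1902 KO cells. Unthinned, the shares were 39.7% and 67.9%. In the eGFP-low control cells (median of 3756 UMIs a cell) no gene of the 19 was found in more than 2.06% of cells unthinned, or in more than 1.43% of the 70 cells deep enough to thin. Col12a1, a related chain, had 5.70 against 7.21 CPM, under the minimum.

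The 6 genes of collagen IV, the basement membrane network, are given here by gene pair. Col4a1 and Col4a2, which together form the common collagen IV of all basement membranes, lie head to head on chromosome 8 with starts 21 bases apart. Col4a1 had 316 against 199 CPM, 1.59 times lower (1.53 to 1.64), and Col4a2 had 222 against 140 CPM, 1.58 times lower (1.52 to 1.65). Their UMI ratio was 1.42 in both libraries (control interval 1.37 to 1.48), so the pair was lower in proportion.

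Col4a3 and Col4a4, whose chains are known from the basement membranes of kidney glomerulus and lung, were higher. Both reached 10 CPM in the KO library only, so nothing is drawn from their calls. The 2 genes lie head to head on chromosome 1 with starts 72 bases apart, and the sequence of that gap is printed above. Col4a4 (82448423 to 82586849) had 5.60 CPM (4.61 to 6.73) against 43.0 CPM (40.7 to 45.4), 7.68 times higher (6.33 to 9.40). Col4a3 (82586921 to 82722059) had 2.85 CPM (2.16 to 3.69) against 19.7 CPM (18.2 to 21.3), 6.91 times higher (5.26 to 9.24). The Col4a3 to Col4a4 UMI ratio was 0.509 (0.363 to 0.706) in control and 0.458 (0.415 to 0.505) in KO cells, intervals that overlap. After thinning, 2.43% of control and 17.8% of KO cells held a Col4a4 UMI (6.03% and 41.7% before it), and 1.37% and 8.52% held a Col4a3 UMI (3.01% and 22.9% before it). In the restricted cells with 2 to 5% SMC marker UMIs the ratios were 4.92 and 4.26, still above 1.5 but more than 1.5 times smaller.

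Col4a5 and Col4a6, on the X chromosome with starts 1309 bases apart, were at most slightly past 1.5-fold. Their chains join in the basement membrane of smooth muscle, and the alpha-5 chain also joins alpha-3 and alpha-4. Col4a5 had 104 against 105 CPM, a ratio of 1.02 (0.962 to 1.07). Col4a6 had 66.7 against 101 CPM, a ratio of 1.51 (1.42 to 1.61), which was under 1.5 in 4 of the alternatives tried. The Col4a5 to Col4a6 UMI ratio was 1.56 in control and 1.05 in KO cells. Summed over the class, the level was 717 against 608 CPM, while its genes did not share a direction.

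Both multiplexin genes were lower in the KO library. Col18a1, whose C-terminal fragment is endostatin (chromosome 10, 77052178 to 77166548), had 750 against 314 CPM, 2.39 times lower (2.33 to 2.45), and was next to Col1a2 in abundance among control cells. After thinning, 94.6% of control and 68.3% of KO cells held a Col18a1 UMI. Col15a1 (chromosome 4, 47208161 to 47313167) had 194 against 85.3 CPM, 2.28 times lower (2.17 to 2.39), and was found in 56.6% and 28.8% of thinned cells.

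The 3 collagen VI genes at 10 CPM or more were also lower. Col6a2 (chromosome 10, 76595762 to 76623630) had 237 CPM (230 to 244) against 55.4 CPM (52.8 to 58.1), 4.28 times lower (4.05 to 4.52). Its neighbour Col6a1 (76708792 to 76726168), in tandem on the same strand, had 180 against 59.9 CPM, 3.00 times lower (2.83 to 3.17). Col6a3, the long alpha-3 chain on chromosome 1, had 81.2 against 50.6 CPM, 1.60 times lower (1.49 to 1.72). The chains that assemble with each other were therefore not lower in proportion: Col6a3 had 0.342 UMIs per Col6a2 UMI in control (0.323 to 0.362) and 0.913 in KO cells (0.852 to 0.979). The share of thinned cells with a Col6a2 UMI was 62.6% in control and 23.3% in KO cells. Col6a6 had 4.80 against 3.54 CPM, and Col6a4 and Col6a5 had no UMI.

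Col8a1, the alpha-1 chain of short-chain collagen VIII (chromosome 16, 57624258 to 57754737), had the largest ratio of the 44 genes among those at 10 CPM. It had 45 UMIs in control and 2316 in KO cells, 2.25 CPM (1.64 to 3.01) against 75.2 CPM (72.2 to 78.4), 33.5 times higher (24.9 to 46.0). After thinning, 0.999% of control cells (0.572 to 1.62) and 20.6% of KO cells (18.8 to 22.5) held a UMI, and 1.95% and 36.6% did before it. The level was concentrated: the tenth of KO cells with most Col8a1 UMIs held 63.6% of them, against 33.0% for Col1a2 and 29.9% for Col18a1 by the same measure. The largest count in 1 KO cell was 23. In cells with 2 to 5% SMC marker UMIs the Col8a1 ratio was 21.9. Col8a2, the other chain of collagen VIII, had 2 and 3 UMIs, and Col10a1, the short-chain collagen of hypertrophic cartilage, had 5 and 15.

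The remaining genes were scarce. Of the 25 genes under 10 CPM, 5 had no UMI in either library (Col6a4, Col6a5, Col9a2, Col13a1 and Col26a1), for which 3 counts set a limit of 0.150 CPM (control) and 0.0975 CPM (KO). The other 20 reached at most 5.70 CPM in control and 7.21 CPM in KO cells, and 15 of them were under 1 CPM in both. Col19a1, a fibril-associated chain, had 66 control and 4 KO UMIs, 3.30 against 0.130 CPM, 25.4 times lower (9.46 to 95.9). Col23a1, a transmembrane collagen, had 5.50 against 3.22 CPM, Col16a1 had 3.60 against 3.28 CPM, and Col22a1 had 10 and 3 UMIs.
Collagens of cartilage were at trace level. The chondrocyte list (Acan, Sox9, Comp, Hapln1 and Matn1, the last at 0 in both) summed to 82.2 CPM in control and 113 CPM in KO cells. Its members went both ways. Sox9 (51.5 and 83.7 CPM) and Comp (8.8 and 16.8 CPM) were higher in the KO library. Acan (19.9 and 11.7 CPM) and Hapln1 (1.95 and 0.942 CPM) were lower. The part of this list in the collagen counts was not tested. Col9a3 had 0 control and 22 KO UMIs, at least 4.77-fold higher against a floor of 3 counts in the control library. Col9a1 had 1 and 24 UMIs, a ratio of 15.6 (2.55 to 642). Col2a1 had 1 and 25 UMIs, of which 16 lay in 1 KO cell. KO cluster 2, described next, held 24 of the 25 Col2a1 UMIs, 19 of the 22 Col9a3 UMIs and 14 of the 24 Col9a1 UMIs. Col11a2 had 11 and 25 UMIs and Col7a1, the anchoring fibril collagen, 3 and 14. Col5a3 had 4 and 6, Col24a1 4 and 0, Col20a1 2 and 5, Col17a1 and Col25a1 1 and 1, and Col11a1 and Col28a1 0 and 1.

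To see how collagens vary inside each library, cells were clustered per library on variable genes from which all collagen genes had been removed. Clusters are parts of 1 library and carry no test. Of the control cells, cluster 3 (319 cells), led by Adamtsl1, Prss12 and Dlx5, was rich in collagen, with 5904 CPM in sum against 3409 to 4520 CPM in the other 4 clusters of 20 cells or more. In it, Col1a2 was at 1520 CPM, Col6a2 at 452, Col6a1 at 334 and Col15a1 at 348 CPM. In control clusters 1 and 2 (519 and 469 cells) Col1a2 was at 922 and 757 CPM, Col6a2 at 194 in both, and Col15a1 at 176 and 166 CPM. Control cluster 4 (313 cells), led by the immediate early and stress genes Socs3, Irs2 and Atf3, had 977 CPM of Col1a2 and 204 CPM of Col6a2.

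Control cluster 5 was small, with 63 cells, and was led by Lum, Gpx3 and Dcn. Its SMC marker share was 3.43% of UMIs, close to that of cluster 4 (3.48%), and it had 5680 CPM of eGFP. Among control clusters of 20 cells or more it had the highest Col4a4 (26.3 CPM), Col4a3 (12.4 CPM), Col14a1 (170 CPM) and Col8a1 (9.29 CPM, from 6 UMIs, 3.41 to 20.2). It had the lowest level of 8 genes, which were Col18a1 (276 CPM), Col15a1 (49.6 CPM), Col6a1, Col6a2, Col4a2, Col4a5, Col5a1 and Col5a2 (65.1 CPM).

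In the KO library, cluster 2 (518 cells), led by Cytl1, Dcn, Igf1 and Lum, held the lowest SMC marker share, 0.556% of UMIs. The fibroblast list summed to 1771 CPM there and to 795 CPM in control cluster 5. Col8a1 was at 132 CPM there, Col4a4 at 67.9, Col4a3 at 34.0 and Col1a1 at 580 CPM, while Col18a1 was at 160 and Col6a2 at 40.0 CPM. KO cluster 3 (496 cells), led by Actg2 and Acta2, had a marker share of 3.26%, within the range of the control clusters. It had 31.0 CPM of Col8a1, 26.8 of Col4a4 and 56.1 of Col6a2, and its collagen sum of 2191 CPM was the lowest of the KO clusters. KO cluster 4 (234 cells), led by Ptgs2, Spp1 and Arc, had 144 CPM of Col8a1 and 486 CPM of Col3a1, near the 504 CPM of control cluster 1. KO cluster 5 (107 cells), led by Megf10, Inmt and Ctla2a with Dlx5 at 123 CPM, had 401 CPM of Col15a1 and 1088 CPM of Col1a2, beside 348 and 1520 CPM in control cluster 3. Its Col6a2 was at 91.2 and its Col3a1 at 116 CPM. KO cluster 1 (538 cells), led by Xirp1 and the heat shock gene Hspa1b, had 19.1 CPM of Col8a1, the lowest of the KO clusters. Cluster 6 (26 cells), led by the neutrophil genes Camp and S100a9, had 371 CPM of Col14a1.

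Over the 5 control and 6 KO clusters of 20 cells or more, 4 genes had ranges that did not overlap between the libraries. The share of all genes with such ranges was not computed, so nothing is drawn from this count. Of the 4, Col8a1 had reached 10 CPM in the KO library only. Col8a1 was at 0.306 to 9.29 CPM in control clusters and 19.1 to 144 CPM in KO clusters. Col3a1 was at 504 to 674 against 116 to 486 CPM, Col6a2 at 155 to 452 against 40.0 to 91.2 CPM, and Col6a1 at 111.5 to 334 against 49.5 to 83.0 CPM. The other 15 overlapped, among them Col1a1 (388 to 587 against 224 to 580 CPM). With finer clusters (Leiden resolution of 1.0), Col8a1 and Col3a1 overlapped as well. Col8a1 then reached 39.8 CPM in a control cluster and fell to 8.49 CPM in a KO cluster. Col3a1 fell to 465 CPM in a control cluster and reached 495 CPM in a KO cluster. Col6a1 and Col6a2 still did not overlap. When the clusters that Dcn and Lum lead were left out of both libraries, leaving 1629 control and 1401 KO cells, 5 genes were higher and 9 lower, all of them among the earlier 5 and 10, beside 11.6% and 9.67% of all genes. As before, Col8a1, Col4a3 and Col4a4 are among the 5, and nothing is drawn from their calls. Col4a1, at 0.669, was the gene that no longer passed. The ratio of the multiplexins was then 0.496. That of the short-chain class, which is nearly all Col8a1, was 21.6, and nothing is drawn from it either.

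**Figure D3:**
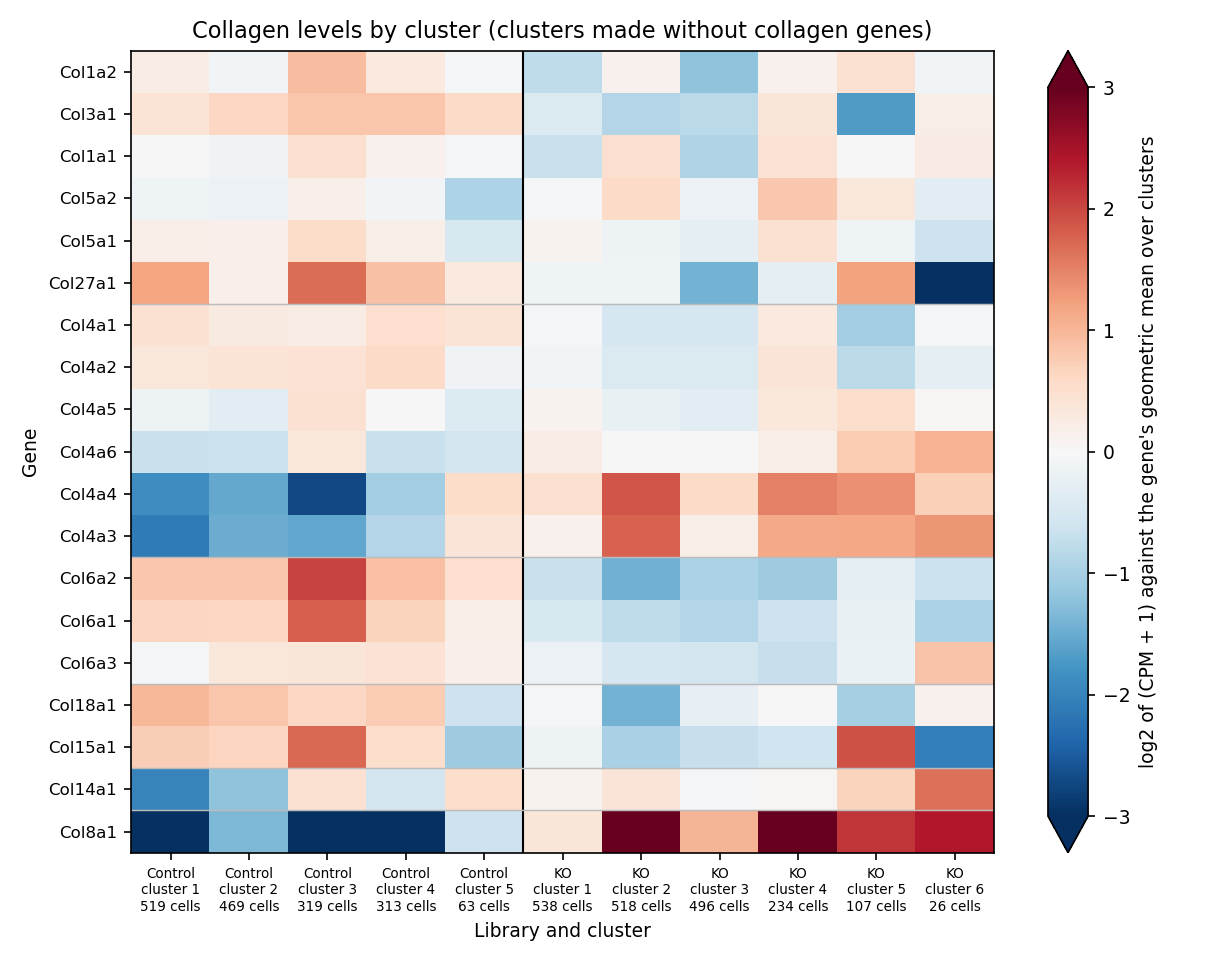
Level of 19 collagen genes (rows, by class) in the clusters of 20 cells or more of each library (columns, with cell numbers), as log2 of CPM + 1 against the gene's geometric mean over these clusters. Colours end at 3 in either direction. Col8a1 is blue in all 5 control clusters, Col4a3 and Col4a4 in control clusters 1 to 4, and all 3 are red in the KO clusters. Col6a1 and Col6a2 show the reverse, and Col15a1 is red in control cluster 3 and KO cluster 5.

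Collagen levels also varied with the contractile share of the cell, which is the share of UMIs from the 7 SMC markers. Cells of each library were ordered by it and cut into 4 equal parts, and collagens were counted per 1000000 of the other UMIs. The parts are ranges of a continuous measure, not cell types. The median share ran from 2.09% to 5.03% over the control parts and from 0.321% to 3.56% over the KO parts. Collagen I was higher where the share was lower, in both libraries. Col1a1 went from 609 in the lowest to 357 per 1000000 in the highest control part, and from 594 to 216 in the KO library. Col1a2 went from 1424 to 743 in control and from 957 to 360 in KO cells. Col8a1 ran this way in KO cells, from 123.5 in the lowest part to 28.6 in the highest, against 0 to 3.91 in the control parts. Col4a4 went from 65.9 to 26.1 in KO cells and stayed at 5.29 to 6.89 in control cells. Col18a1 ran the other way in KO cells, with 161 in the lowest part and 393 in the highest, against 676 and 798 in the control.

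**Figure D4:**
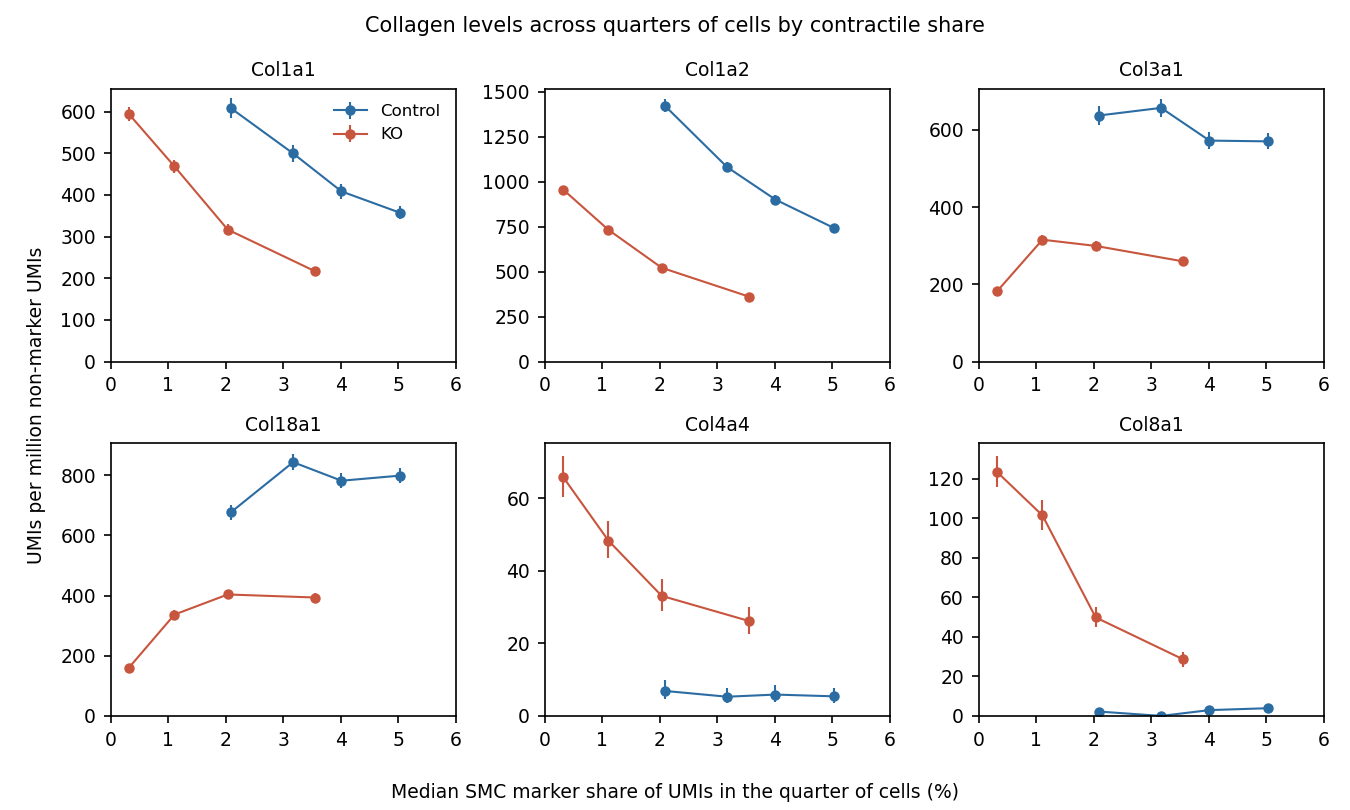
UMIs of 6 collagen genes per 1000000 UMIs from genes other than the SMC markers (y axis, from 0) in 4 equal parts of the cells of each library, placed at the median SMC marker share of each part (x axis, %). Blue is the control and red the KO library, and bars are exact 95% Poisson intervals. Col1a1 and Col1a2 descend from left to right in both libraries, and the lowest KO value of Col8a1 (28.6) is above all control values.

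The authors' deposited table of averages gives another grouping of the cells, with 9 control and 7 KO columns named by cluster number. It lists 35 of the 44 genes, as mean counts per 10000, without cell numbers or errors. In the authors' deposited table, 5 columns of each library held eGFP at 1 or more, and these carry the numbers 0 to 4. In cluster 1, with Acta2 at 196 for control and 204 for KO, the authors' deposited table had Col8a1 at 0.0478 and 0.527. For the same pair of columns, the authors' deposited table gave Col6a2 as 1.76 and 0.555 and Col18a1 as 6.12 and 2.54. In cluster 4, the authors' deposited table had Rgs5 at 29.6 and 6.75, Col15a1 at 3.46 and 3.55, and Col6a2 at 4.60 and 1.09. In cluster 2, the authors' deposited table had Dcn at 25.4 for control and 9.71 for KO, Col4a4 at 1.04 and 0.526, and Col4a3 at 0.980 and 0.301. For these genes that pair of columns runs opposite to the ratio over all used cells, and the control column of cluster 2 in the authors' deposited table is above the other control columns. For Col8a1, the KO column of cluster 0 in the authors' deposited table was at 0.048. This is under 0.170 and 0.109 in the control columns of clusters 2 and 3.

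Genes that make, bind and break down collagen did not share one direction. Of 32 biosynthesis genes in the files, 26 reached 10 CPM, of which 3 were higher and 5 lower, beside 13.2% and 11.4% of all genes, with a median log2 ratio of -0.17. The count of higher genes is near the share over all genes. Serpinh1, the collagen chaperone HSP47, had 794 against 537 CPM, a ratio of 0.676 just inside 1.5-fold. P4ha1, a catalytic subunit of prolyl 4-hydroxylase, had 65.4 against 58.8 CPM, and its relative P4ha2 was 1.59 times lower. P3h3, of the prolyl 3-hydroxylase family, was 1.66 times lower, and Tmem38b, an endoplasmic reticulum ion channel, 1.63 times lower. P3h2, whose substrates include collagen IV, was 2.004 times higher, with 21.7 against 43.6 CPM. Lox, the main crosslinking oxidase, had 179 against 174 CPM, while its relatives Loxl3 and Loxl2 were 2.61 and 1.73 times lower. Pcolce, which enhances removal of the C-propeptide, had 16.1 against 60.9 CPM, 3.79 times higher (3.36 to 4.27), and the C-proteinase gene Bmp1 was 1.51 times higher.

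Of 7 collagen receptors, 4 reached 10 CPM, and 3 were lower and 0 higher, beside 11.4% and 13.2% of all genes. Itga1, the alpha-1 integrin that binds collagens I and IV, had 29.98 against 9.32 CPM, 3.22 times lower, and its partner Itgb1 had 765 against 462 CPM. Ddr2, a receptor kinase for fibrillar collagen, was 1.69 times lower. Of 8 genes of collagen breakdown and uptake, 4 reached 10 CPM and these 4 were higher, beside 13.2% of all genes, with a median log2 ratio of 1.35. Mmp2, the gelatinase, had 17.4 against 136 CPM, Ctsk, the collagenolytic cathepsin, 7.70 against 24.0 CPM, Mmp14 16.1 against 33.5 CPM and the collagen uptake receptor Mrc2 15.7 against 24.5 CPM. Ctsk and Itga1 each reached 10 CPM in 1 library only and had to differ, so nothing is drawn from their calls.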

How the data were processed

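The authors deposited raw UMI counts per gene and cell for 2 droplet libraries. The submitters' processing notes name bcl2fastq, Cell Ranger, Seurat 2.0 and build mm10, without the step each served. How cells were called is not stated in the sources used here. The authors' deposited table of averages was taken to hold linear mean counts scaled to 10000, since each column sums to that. Here counts were summed over used cells per library and divided by the total (CPM). Ratios have exact conditional binomial 95% intervals, levels have exact Poisson bounds and cell shares have Clopper-Pearson bounds, which cover counting error and nothing else. For the fold of a gene with 0 control counts, the control count was set to a floor of 3 counts. Per library, 3 counts equal 0.150 CPM (control) and 0.0975 CPM (KO), and levels of 0 were left at 0. For the span of a gene between clusters, fewer than 3 counts in its lowest cluster were set to 3. Genes at 10 CPM or more in a library were called at 1.5-fold. Clusters were made per library with scanpy 1.11.5 and Leiden (2000 variable genes, 30 components, 15 neighbours, resolution 0.5). Doublets stayed in, and an alternative left out those Scrublet called (6 per library). The ratio and thinning code was tested on simulated data. Gene positions come from GENCODE M21 on GRCm38, the same build as mm10. Protein sequences were not used here. All 44 collagen genes are accounted for, those at 10 CPM or more with values. Of the biosynthesis, receptor and turnover lists, genes past 1.5-fold (up to 5 at either end) and Serpinh1, P4ha1 and Lox are named. The genes, classes and lists were chosen with earlier results of these data known. Alternatives covered cell filters, scaling, weighting, thinning and thresholds.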

Additional observations from a re-analysis of the deposited data

How the results depend on the processing

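Ratios of collagen genes and classes, and counts of calls, were recomputed under 10 alternatives fixed at the start and 2 added after the data were seen (leaving out the clusters that Dcn and Lum lead, and using only cells with 2 to 5% of UMIs from SMC markers). Cell shares, cluster counts and contractile parts had their own alternatives, and UMI ratios between genes and ratios of single list genes had none. No called collagen ratio changed direction under these 12. For Col8a1, Col4a3, Col4a4 and Col27a1, which reached 10 CPM in 1 library only, nothing is drawn from this or from the ranges of their ratios. The count of higher genes was 3 with a level minimum of 50 CPM, 3 with a threshold of 2-fold and 10 with no level minimum, and the count of lower genes was 6 at 2-fold and 15 with no level minimum (20.7% of all genes higher and 18.5% lower). At 50 CPM 12.1% of all genes were higher, and at 2-fold 6.3% were higher and 4.73% lower. With cells of 2 to 5% SMC marker UMIs, 8 biosynthesis genes were lower in place of 5. In these cells 11 of 19 collagen genes were lower, Col1a1 being added, and 4 were higher. Of all genes, 10.8% were lower and 9.62% higher there, and the cause was not tested. Median-ratio scaling moved the median log2 ratio of all genes to 0.04, and leaving the 20 most abundant genes out of the totals moved it to 0.09. Median-ratio scaling left Col1a2 uncalled, and a mitochondrial limit of 5% left Col1a2 and Col4a6 uncalled. Between clusters, 13 control and 17 KO genes spanned at least 2-fold, and 10 KO genes did at a Leiden resolution of 0.25. The share of all genes that spanned as much was not computed. In 50% of thinned cells or more, 9 genes were found in control and 5 in KO cells, and 14 in KO cells without thinning. Over the 12 alternatives the ratio of Col8a1 ran from 21.9 to 49.7, that of Col6a2 from 0.202 to 0.259 and the uncalled ones of Col1a1 and Col5a2 from 0.526 to 1.03 and from 0.967 to 1.36. No paired analysis was possible because each genotype has 1 library.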

Other observations

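The 339 eGFP-low control cells, which carry immune markers (15606 CPM over 6 macrophage markers), held 55 collagen UMIs of 16 genes in all, 40.4 CPM against 4468 CPM in the eGFP-positive control cells. Col1a2 had 13 of these UMIs, the most of any collagen gene there, and Col8a1 had 0. Unlike the used cells, the eGFP-low cells had 1448 Xist and 0 Y-linked UMIs, so they are no matched baseline.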
